A study of Mus musculus with 37 samples.

Results

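The genes described here encode the DNA replication machinery. The 41 members were listed by name and sorted into 9 groups by role. The rule uses no measured value, but the list was drawn up with earlier results of these data known. All 41 had a row among the 30892 genes of the cardiac fibroblast (CF) count table, 40 had a row among the 20158 genes of the table of neonatal rat ventricular cardiomyocytes (NRVMs), where E2f1 was not found, and 41 were found among the 31053 genes of the single-cell tables. All 41 CF members and all 40 NRVM members passed the filter on low counts, which left 17879 and 13461 genes.

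The study asked how medium conditioned by myocytes (MCndM) acts on other cells of the injured heart. NRVMs had been given vehicle, ATP, ENPP1, ENPP1 together with ATP, or AMP, where ENPP1 is an ectonucleotidase that splits ATP into AMP and pyrophosphate, and their medium was moved onto fresh cells. Wild-type C57BL/6 mouse CFs, immortalized (with SV40 antigen, as the study states for its CF lines), were kept in each medium for 24 h or 48 h, with 2 libraries per medium and time, 20 in all. NRVMs were kept in the same 5 media for 24 h, with 3 libraries each, 15 in all. Both kinds of cell had been seeded at low density and held in serum-free medium with insulin, transferrin and selenium before the conditioned medium was added. The NRVMs came from wild-type Sprague-Dawley rats, although GEO lists them under mouse. Single-cell libraries of nonmyocytes 7 days after myocardial infarction came from 1 C57BL/6 heart sample labelled ENPP1 CKO (ENPP1CKO), in which a tamoxifen-inducible Cre driven by a collagen promoter active in fibroblasts (Col1a2) deletes a floxed ENPP1 allele, and 1 control labelled wild type. The labels do not say that replicate libraries came from separate cultures, so p-values measure only the spread between these libraries.

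Replication starts when the origin recognition complex, Cdc6 and Cdt1 load the ring-shaped MCM helicase onto DNA, which is called licensing. At the start of S phase, cyclin E and E2F transcription factors act, and Mcm10, Cdc45 and the GINS complex turn the loaded ring into a working helicase. Polymerase alpha with primase lays down primers, replication factor C loads the sliding clamp PCNA, polymerases delta and epsilon extend, and Fen1 and ligase I join the pieces of the lagging strand. Many of these genes are known E2F targets and are high in dividing cells, and most adult cardiomyocytes do not divide. SV40 large T antigen is known to bind the retinoblastoma proteins that restrain E2F, so an immortalized CF is a limited model of how a resting fibroblast enters S phase.

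Libraries held 32184799 to 115824659 counts in CFs, with the deepest being 24 h vehicle replicate 1, and 13481389 to 16977980 in NRVMs. Levels are given as counts scaled to library size (CPM) after TMM scaling, and log2 fold changes as estimate ± standard error from edgeR's quasi-likelihood test, with Benjamini-Hochberg adjustment over all genes tested and 0.05 as the threshold. No pair of replicates agreed within sampling noise. Chi-square per gene, which grows with depth, was 36.5 for the CF 24 h AMP pair and 2.46 to 12.7 for the others. The correlation of log CPM was lowest for the CF 48 h ENPP1+ATP pair (0.9765), then 24 h AMP (0.9816). Of 8 fibroblast markers 7 had a mean above 1 CPM over the CF libraries, and Lum was below that level. Tcf21, with a mean of 2.27 CPM, ranged from 0.654 to 4.16 CPM. Fibroblast markers summed to 6855 to 7198 CPM in 24 h vehicle medium. Of 8 macrophage markers Cd68 (mean 18.9 CPM, up to 64.8), Lyz2 (4.71, up to 6.05) and Csf1r (3.79, up to 9.68) were found in every CF library, while Adgre1, C1qa, C1qb, C1qc and Mrc1 were at most 0.167 CPM. All 8 cardiomyocyte markers were present in NRVMs, at 38920 to 40950 CPM in vehicle medium, and 7 fibroblast markers summed to 24740 to 26120 CPM there. In bulk libraries, fewer cells of a type and less RNA per cell cannot be told apart.

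Per kb of exon, members spanned a wide range of levels in 24 h vehicle CFs. Pcna stood highest at 167 CPM per kb, followed by Mcm4 at 112, and Orc1 and Mcm10 stood lowest at 5.88 and 6.76. Mcm6 and Mcm7 were at 91.3 and 80.6 CPM per kb, so these helicase subunits had higher levels per length than Mcm10, which activates the helicase, and Orc1, which loads it.

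Promoter sequence was read from RefSeq (GRCm38.p6) for 32 members, in 37 windows of 250 bases before to 50 bases after a start. The letters TTTCCCGC, TTTCGCGC, TTTGCCGC or TTTGGCGC, a core bound by E2F factors, on either strand, were present in 13 of the 37 windows (35.1%) and in 744 of all 32851 windows (2.26%). CCAAT on either strand was present in 23 (62.2%) and in 37.4% of all windows. Of the 37 windows 5 are shown, over the 150 bases before the start, to set a change in transcript level beside the letters. They come from the windows with at most 30 bases of exon and a start within 100 bases of the GENCODE start. Mcm10 and Chaf1b rose at 24 h in ENPP1+ATP medium and have no E2F match in the window, while Mcm6 and Pola1 have a match and did not rise, and Mcm2 has no match and did not rise. The shown windows do not stand for the rest: Mcm3 and Cdt1, which rose by 0.33 and 0.49 and meet the same limits, have matches in their full windows outside the 150 bases. Likewise Cdc6, Orc1, Rfc3 and Mcm7, which rose by 0.89, 0.65, 0.56 and 0.53, each have a match in their full window. The 5 are written 5′ to 3′ in the gene's direction, with the E2F letters, on either strand, in capitals.
Mcm10, chr2:5012792-5012941, minus strand: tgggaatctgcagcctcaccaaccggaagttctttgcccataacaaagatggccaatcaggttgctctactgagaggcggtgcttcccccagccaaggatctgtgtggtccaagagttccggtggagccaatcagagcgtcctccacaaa
Chaf1b, chr16:93883751-93883900, plus strand: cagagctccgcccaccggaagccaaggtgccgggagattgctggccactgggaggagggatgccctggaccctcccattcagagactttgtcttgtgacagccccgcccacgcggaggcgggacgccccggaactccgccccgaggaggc
Mcm6, chr1:128359706-128359855, minus strand: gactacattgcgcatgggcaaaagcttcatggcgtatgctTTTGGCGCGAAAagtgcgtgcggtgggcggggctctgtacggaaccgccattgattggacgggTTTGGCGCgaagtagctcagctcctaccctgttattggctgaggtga
Pola1, chrX:93632156-93632305, minus strand: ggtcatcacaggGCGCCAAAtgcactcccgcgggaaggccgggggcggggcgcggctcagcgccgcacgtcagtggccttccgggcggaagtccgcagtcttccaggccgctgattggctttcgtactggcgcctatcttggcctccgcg
Mcm2, chr6:88898781-88898930, minus strand: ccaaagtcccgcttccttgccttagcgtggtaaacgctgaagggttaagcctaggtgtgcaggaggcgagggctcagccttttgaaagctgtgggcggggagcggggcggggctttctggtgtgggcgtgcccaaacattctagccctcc
The Mcm6 window held 3 matches, of which 2 overlap, starting 110, 106 and 47 bases before the start, and the Pola1 window held 1, at 138 bases, on the other strand. CCAAT was found in the printed bases of Mcm10, Mcm6 and Pola1, not in those of Chaf1b or Mcm2. Of the 25 matched genes that rose at 24 h in ENPP1+ATP medium, 9 had the E2F letters in a window, as did 1 of the 2 that fell (Mcm6, not Rpa3) and 3 of the 5 that were not called. A match describes letters only, and no match says nothing of the factor.

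The first comparison asks what ENPP1+ATP medium does to these transcripts in CFs within 24 h. Of the 41 members 32 rose, 3 fell and 6 were not called, against 23.9% of all genes tested that rose and 25.3% that fell. The median log2 fold change of the members was 0.48, and that of all genes was -0.0046. In 34 members both treated libraries lay above both vehicle libraries, which was so of 37.3% of all genes. The summed CPM of the members was 5690 and 5675 in vehicle medium and 7302 and 6995 in ENPP1+ATP medium, so the groups did not overlap.

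**Figure D1:**
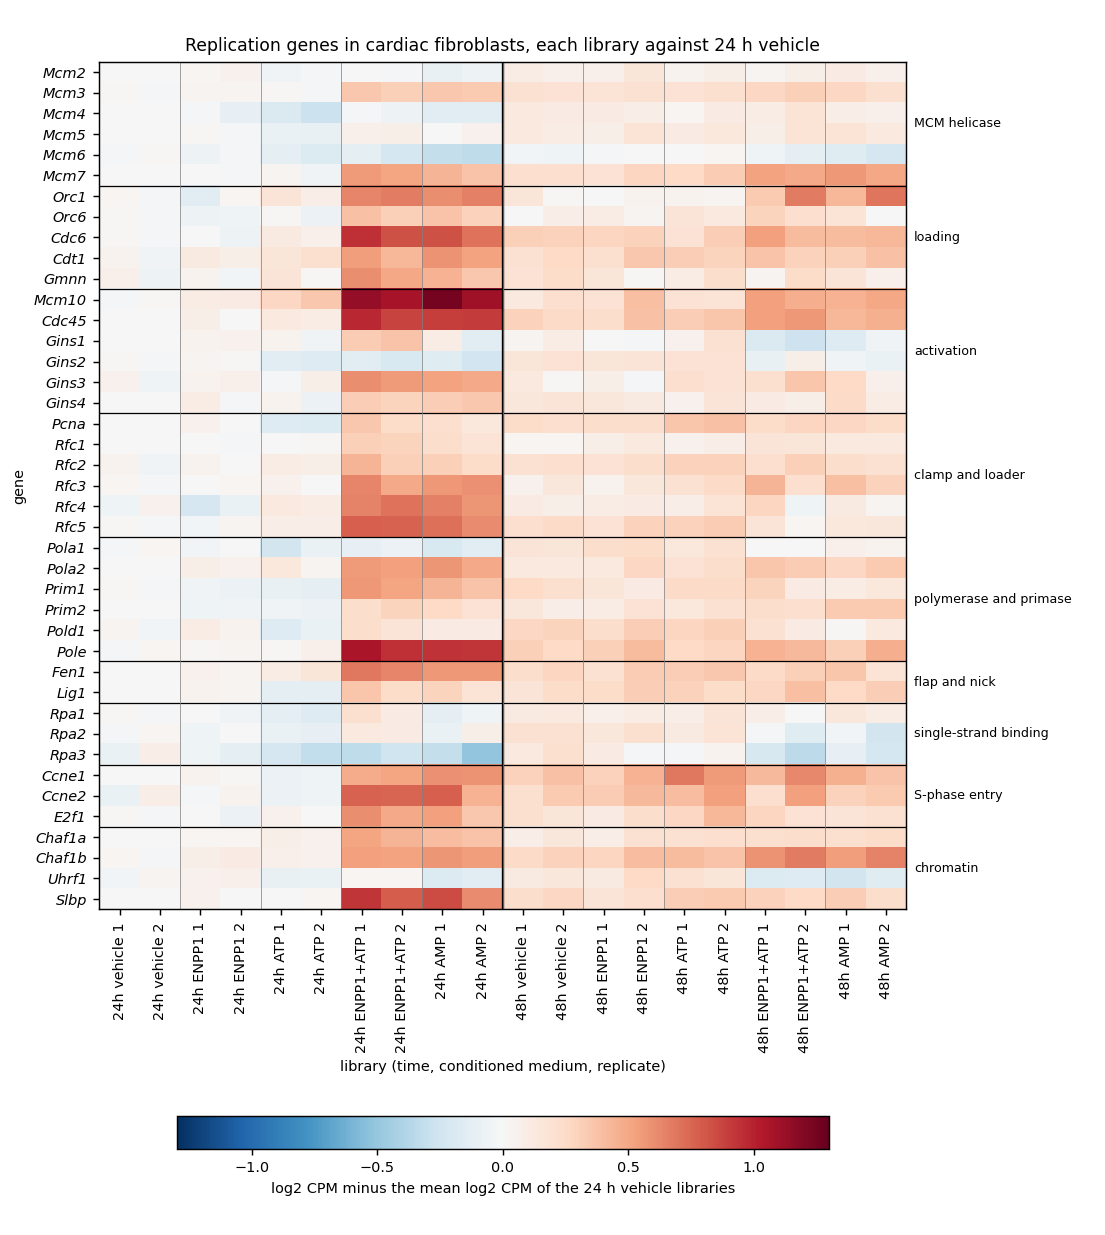
Log2 CPM of each member (rows, by role) in each CF library (columns, by time, medium and replicate) minus the mean log2 CPM of the 24 h vehicle libraries. The 24 h ENPP1+ATP and AMP columns are red in most rows, and MCM rows Mcm2, Mcm4 and Mcm6 are not.

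Activation factors held the largest rise. Mcm10, which helps start the helicase (chromosome 2, 4989714 to 5012791, GRCm38, minus strand), was at 51.4 and 52.6 CPM in vehicle medium and at 115 and 109 CPM in ENPP1+ATP medium. The libraries did not overlap, and the log2 fold change was 1.11 ± 0.06 (adjusted p = 2.4e-13). Cdc45, a subunit of the active helicase (chromosome 16, 18780447 to 18811987, minus strand), went from 66.8 and 66.6 to 131 and 123 CPM, a log2 fold change of 0.93 ± 0.05 (adjusted p = 2.2e-13). Gins1, Gins3 and Gins4, subunits of the GINS complex of the same helicase, also rose, at 0.35, 0.58 and 0.31. Gins2, the remaining subunit, was the exception in this group and fell, from 60.8 and 59.9 to 54.9 and 52.6 CPM, at -0.17 ± 0.06 (adjusted p = 0.015). Its exons overlap those of Gse1 on the other strand over 67.3% of their length, and whether counting used the strand is not given in the sources used here.

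All 5 loading genes rose. Cdc6, which brings the helicase to the origin (chromosome 11, 98907801 to 98923940, plus strand), was at 70.9 and 69.1 CPM in vehicle and at 135 and 124.5 CPM in ENPP1+ATP medium. Its log2 fold change was 0.89 ± 0.06 (adjusted p = 2.6e-12). Cdt1, its partner in loading, went from 129 and 122 to 183 and 169 CPM, a change of 0.49 ± 0.05 (adjusted p = 3.8e-08). Orc1 and Orc6, subunits of the origin recognition complex, rose by 0.65 and 0.34 (exons of Orc1 overlap opposite-strand Gm12743 over 10.8% of their length), and Gmnn, which encodes geminin, the inhibitor of Cdt1, rose by 0.55.

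The genes of the MCM ring did not move as one, with 2 higher, 1 lower and 3 not called. Mcm7 rose from 359 and 355 to 524.5 and 507.5 CPM, at 0.53 ± 0.05 (adjusted p = 6.1e-10), and Mcm3 rose by 0.33. Mcm2, another subunit of the ring, was at 444 and 446 CPM in vehicle and at 447 and 437.5 CPM in ENPP1+ATP medium, so the libraries overlapped. Mcm4 and Mcm5 had values of -0.04 and 0.07 that were not called. Mcm6 fell from 421 and 431 to 389 and 364 CPM, at -0.18 ± 0.04 (adjusted p = 1.6e-03). The Mcm7 exons overlap those of Ap4m1, Cops6 and 2 microRNA genes over 12.6% of their length.

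Both lagging-strand genes and all 6 clamp and clamp-loader genes rose. Pcna, the sliding clamp, went from 401 and 400 CPM to 511 and 473 CPM, at 0.30 ± 0.04 (adjusted p = 3.6e-06). Rfc5, a subunit of the complex that loads it, rose from 99.1 and 96.6 to 168 and 166 CPM, at 0.77 ± 0.05 (adjusted p = 5.6e-12), and the other loader subunits Rfc1, Rfc2, Rfc3 and Rfc4 rose by 0.30 to 0.68. Fen1, the flap nuclease, rose from 111 and 111 to 179 and 173 CPM, at 0.66 ± 0.05 (adjusted p = 1.9e-10). Lig1, the ligase, rose from 162 and 162 to 207 and 191 CPM, at 0.30 ± 0.05 (adjusted p = 3.3e-05). Exons of Fen1 overlap opposite-strand Tmem258 and Gm10143 over 84.2% of their length, and those of Rfc2, Rfc4 and Rfc5 overlap opposite-strand genes over 15.1%, 12.7% and 10.7%, with the same open question of strand.

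Of the 6 polymerase and primase genes 5 rose. Pole, the leading-strand polymerase (chromosome 5, 110286306 to 110337474, plus strand), went from 153 and 158 to 324 and 300.2 CPM. The libraries did not overlap, and the log2 fold change was 1.01 ± 0.05 (adjusted p = 6.8e-14). Pola2 and Prim1, subunits of the complex that makes primers, rose by 0.54 each, Prim2 by 0.26 and Pold1, the catalytic subunit of polymerase delta, by 0.20. Pola1, the catalytic subunit of polymerase alpha, had 103 and 106 CPM in vehicle and 96.8 and 98.9 CPM in ENPP1+ATP medium, at -0.09 ± 0.05 (adjusted p = 0.115), and was the one not called.

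The 3 subunits of the single-strand binding protein RPA did not move together. Rpa1 rose from 263 and 256 to 300.5 and 279 CPM, at 0.16 ± 0.05 (adjusted p = 5.8e-03). Rpa2 had a value of 0.12 that was not called. Rpa3 fell from 25.8 and 29.1 to 21.8 and 23.0 CPM, at -0.29 ± 0.08 (adjusted p = 5.5e-03). Without ENPP1+ATP replicate 1 the calls of Rpa1 and Rpa3 were lost, at 0.11 and -0.25, as they were without vehicle replicate 2, at 0.14 and -0.21. The falls of Mcm6 and Gins2 were lost without ENPP1+ATP replicate 2, at -0.12 and -0.13, and that of Gins2 also without vehicle replicate 1, at -0.16.

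All 3 S-phase entry genes rose. Ccne2, a cyclin E that activates Cdk2, went from 37.5 and 42.1 to 67.6 and 66.9 CPM, at 0.76 ± 0.10 (adjusted p = 1.2e-06). E2f1, a transcription factor of S-phase genes, went from 97.7 and 95.6 to 147 and 136 CPM, at 0.55 ± 0.06 (adjusted p = 6.0e-08), and Ccne1, the other cyclin E, rose by 0.50. Among the chromatin genes, Slbp, which binds the ends of histone messages, rose from 166 and 166 to 317 and 287 CPM, at 0.86 ± 0.06 (adjusted p = 7.6e-12), and the histone chaperone subunits Chaf1a and Chaf1b rose by 0.48 and 0.53. Exons of Chaf1a overlap opposite-strand Ubxn6 over 52.5% of their length, and those of Ccne2 overlap Ints8 over 17.4%. Uhrf1, which links replication to DNA methylation, had 295 and 311 CPM in vehicle and 308 and 308.5 CPM in ENPP1+ATP medium and was not called.

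Of 38 other replication genes 23 rose and 6 fell in this comparison, where 23.9% of all genes tested rose and 25.3% fell, with a median of 0.35. Clspn, Ticrr, Cdc7 and Chtf18, which act in origin firing or at the fork, rose by 1.43, 1.20, 1.09 and 1.08, and Pold2, Rnaseh2c and Orc4 fell by 0.62, 0.60 and 0.40. Of 20 E2F regulators 15 rose and 0 fell, with a median of 0.43, among them E2f8, E2f2 and E2f7 at 1.36, 1.27 and 1.15. Over the same libraries, the summed fibroblast markers were 6855 to 7198 CPM in vehicle and 3363 to 3466 CPM in ENPP1+ATP medium, and the 8 macrophage markers, led by Cd68, Csf1r and Lyz2, were 8.36 to 8.68 and 25.5 to 32.8 CPM. In 24 h AMP medium the sums were 2632 to 2847 and 49.7 to 50.8 CPM, and in 48 h ENPP1+ATP medium 3499 to 3727 and 61.0 to 70.9 CPM. In 48 h vehicle medium the sums were 6729 to 7100 and 9.31 to 9.38 CPM. The part of these markers in the result was not tested.

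**Figure D2:**
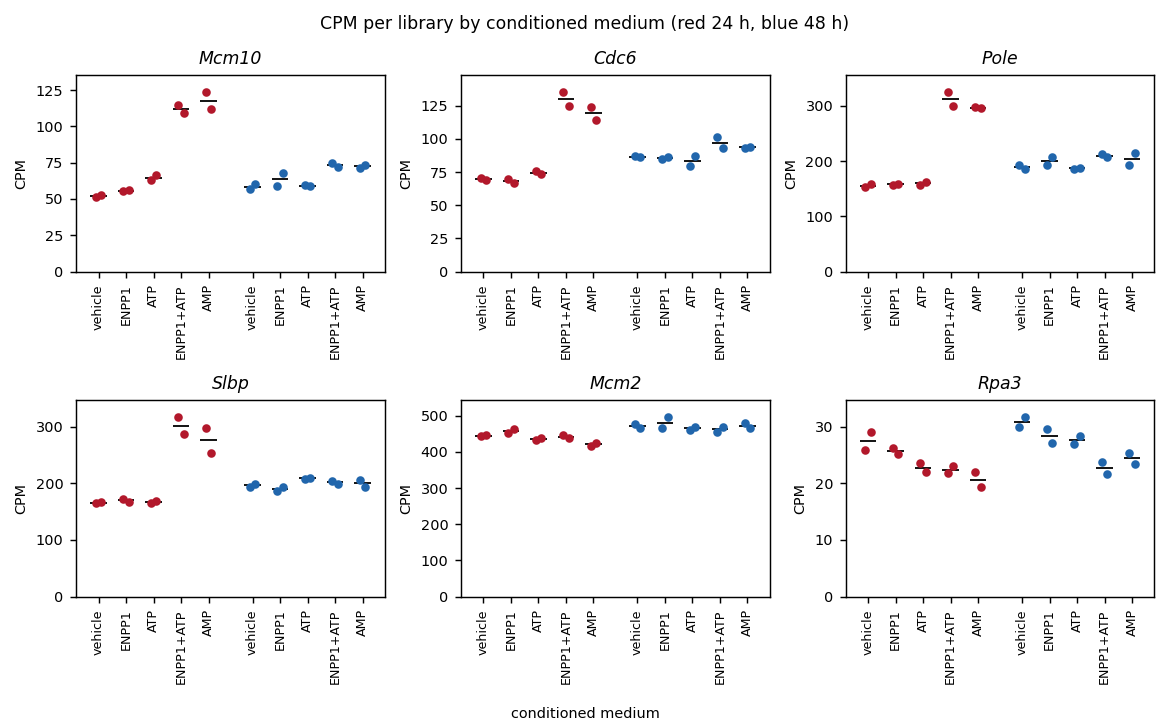
CPM of 6 members in every CF library (points), by conditioned medium, with the mean of each pair as a line and 24 h in red and 48 h in blue. Mcm10, Cdc6, Pole and Slbp are highest in 24 h ENPP1+ATP and AMP media, Mcm2 overlaps between vehicle and ENPP1+ATP media at 24 h, and Rpa3 is lower in 24 h ENPP1+ATP and AMP than in vehicle medium.

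AMP medium gave 29 rises and 6 falls at 24 h, with 6 not called, against 25.3% and 27.5% of all genes that rose and fell. The median was 0.38. Mcm10 was at 123 and 112 CPM and Pole at 298 and 296 CPM, in the range of the ENPP1+ATP libraries or close to it. The vehicle libraries are shared by both comparisons. Mcm6, at 343 and 338 CPM, Gins2, at 54.0 and 50.9 CPM, and Rpa3, at 22.1 and 19.3 CPM, fell by 0.32, 0.20 and 0.41. Mcm4, at 366 and 364 CPM against 405 and 401 in vehicle, Pola1, at 91.3 and 95.3 CPM, and Uhrf1, at 268 and 275 CPM, fell by 0.14, 0.16 and 0.16. All 6 lay below both vehicle libraries, as did 8 members in all and 38.4% of all genes. The call of Gins2 was lost without AMP replicate 2 (-0.16), that of Pola1 without AMP replicate 1 (-0.13) or vehicle replicate 2 (-0.15), and that of Uhrf1 without vehicle replicate 2 (-0.13). In the direct comparison of AMP with ENPP1+ATP medium, 3.65% of all genes were lower and 2.6% higher, and 4 of 41 members were called, all lower in AMP medium (Mcm6 at -0.15, Gins1 at -0.37, Rpa1 at -0.24 and Uhrf1 at -0.18). That count was 0 without ENPP1+ATP replicate 1 and 2 without ENPP1+ATP replicate 2 or AMP replicate 2.

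ATP medium and ENPP1 medium did not raise the set. In ATP medium 2 members rose (Mcm10 at 0.31 and Cdt1 at 0.18), 6 fell and 33 were not called, against 4.77% and 6.32% of genes, and the median was -0.0037. The 6 that fell were Mcm4, Mcm6, Pcna, Pola1, Rpa1 and Rpa3, at -0.23, -0.14, -0.17, -0.16, -0.14 and -0.26. The count of 8 went to 2 or 3 without any 1 of the 4 libraries compared. In ENPP1 medium edgeR called 0 of the 41 (0% of genes), with 0 members and 249 genes at an unadjusted p under 0.05, and DESeq2 also called 0 members. ENPP1+ATP against ATP medium gave 35 rises and 0 falls, against 21.8% and 22.1% of genes, with a median of 0.42, and ENPP1+ATP against ENPP1 medium gave 32 rises and 2 falls, against 23.4% and 24.8%.

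At 48 h fewer members rose than at 24 h, the median change was smaller, and some shares lay near those over all genes. In ENPP1+ATP against vehicle medium 14 members rose, 7 fell and 20 were not called, against 20.8% and 24.4% of genes, and the median was 0.051. The count of 21 went to 13 without 48 h vehicle replicate 1 and to 12 without replicate 2. Orc1, Chaf1b, Mcm10, Mcm7 and Cdc45 rose by 0.43, 0.36, 0.33, 0.29 and 0.28. Rpa3 went from 29.9 and 31.6 to 23.7 and 21.6 CPM and fell by 0.44, and Rpa2 went from 57.4 and 57.4 to 49.5 and 44.9 CPM and fell by 0.28. Uhrf1 went from 328 and 336 to 268 and 271 CPM (-0.30), and Gins1 from 17.9 and 18.7 to 15.3 and 14.5 CPM (-0.29). Gins2, from 67.2 and 68.7 to 56.4 and 63.6 CPM, Pola1, from 118 and 117 to 105 and 105 CPM, and Rfc5, from 114 and 116 to 110 and 99.7 CPM, fell by 0.18, 0.16 and 0.13. In all 7 genes both ENPP1+ATP libraries lay below both vehicle libraries, as in 11 members and 37.5% of all genes, and in 19 members and 32.3% of all genes both lay above. The call of Orc1 was lost without ENPP1+ATP replicate 2 (0.25), and that of Pola1 without vehicle replicate 1 (-0.16). Gins1 lost it without ENPP1+ATP replicate 2 (-0.25) or vehicle replicate 2 (-0.27), and Gins2 without ENPP1+ATP replicate 1 (-0.09) or vehicle replicate 2 (-0.17). Rfc5 lost it without ENPP1+ATP replicate 2 (-0.07) or either vehicle library (-0.15 and -0.13), and with DESeq2 (-0.11). Of the 32 members that had risen at 24 h, 14 were also higher at 48 h, 16 were not called and 2 (Gins1 and Rfc5) were lower. ENPP1+ATP against ATP medium gave 8 rises and 9 falls, or 19.5% and 22% of members, near the 18.2% and 21.3% of genes. The median there was -0.0085. ENPP1+ATP against ENPP1 medium gave 11 rises and 6 falls (21.1% and 23.9% of genes). Those counts of 17 went to 10 without 48 h ATP replicate 2 and to 11 without 48 h ENPP1 replicate 1. AMP medium gave 8 rises (19.5% of members) and 6 falls (14.6%) at 48 h, against 21.1% and 22.9% of genes, with a median of 0.027. Pold1, which had risen in ENPP1+ATP medium at 24 h, was among the falls, at 114 and 122 CPM against 135 and 137 in vehicle medium (-0.21). AMP against ENPP1+ATP medium gave 0 called of 41 by edgeR (0.0895% of genes higher and 0.0727% lower), with 3 members and 2460 genes at an unadjusted p under 0.05 and 0 members by DESeq2. ATP medium gave 2 rises, Pcna at 0.14 and Ccne1 at 0.28 (5.35% of genes rose and 2.48% fell), a count of 0 or 1 without any 1 of the 4 libraries compared. The median for ATP against vehicle medium was 0.051, as for ENPP1+ATP medium. ENPP1 medium gave 0 of 41 by edgeR and by DESeq2 (0% of genes), with 743 genes and 0 members at an unadjusted p under 0.05.

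**Figure D3:**
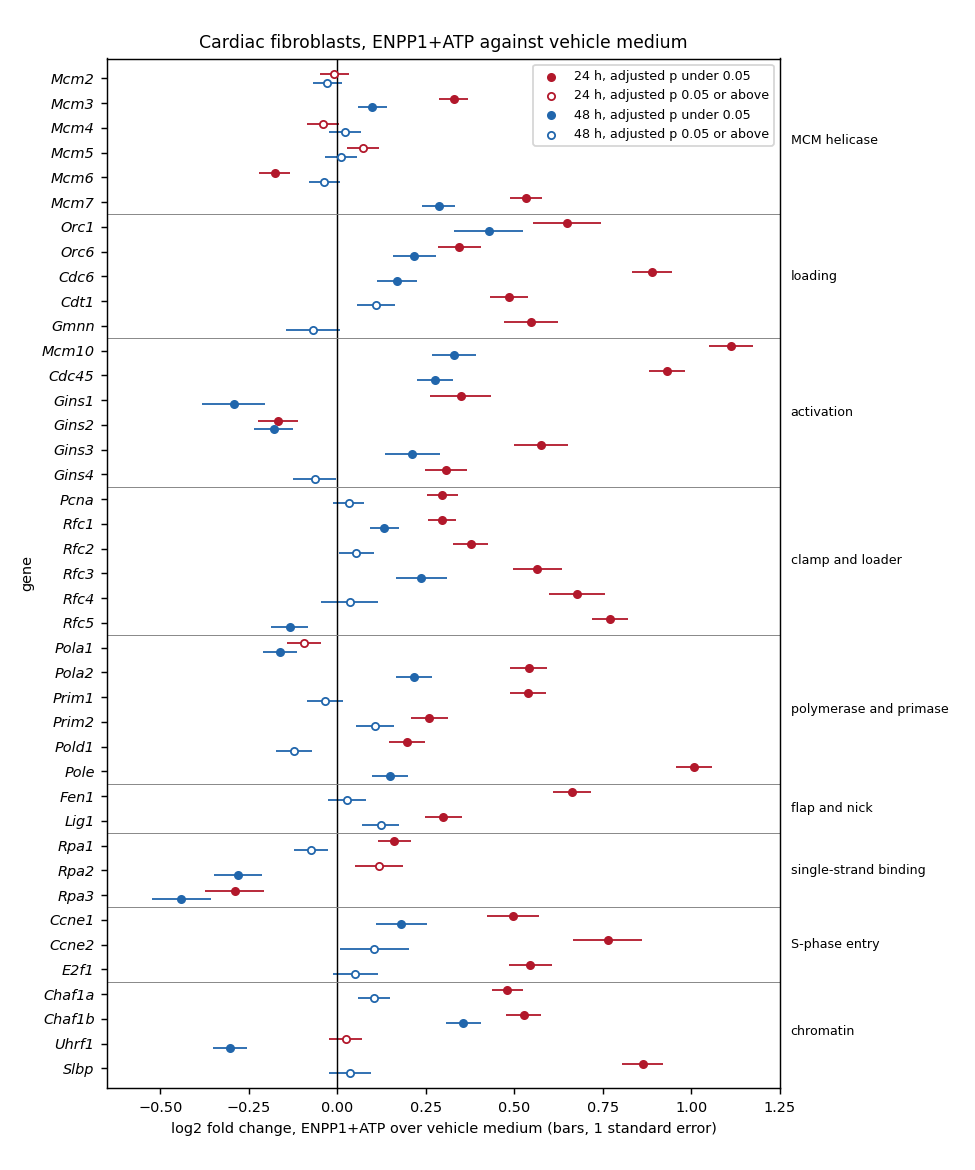
Log2 fold change of ENPP1+ATP over vehicle medium in CFs (points, bars of 1 standard error) for each member, at 24 h (red) and 48 h (blue), filled where the adjusted p is under 0.05. Most red points lie to the right of the blue ones, and Rfc5 and Gins1 were called higher at 24 h and lower at 48 h.

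The difference between the times was tested by an interaction term. The effect of ENPP1+ATP medium was lower at 48 h than at 24 h in 29 members and higher in 0, against 14.9% and 15.1% of genes, and the median difference was -0.32. It was largest for Rfc5, at -0.90 ± 0.07 (adjusted p = 1.3e-09), then for Pole at -0.86 ± 0.07, Slbp at -0.83 ± 0.08 and Mcm10 at -0.78 ± 0.09. For AMP medium 25 were lower and 1, Mcm6 at 0.19 ± 0.06 (adjusted p = 0.024), was higher, against 14.4% and 17.3% of genes, and for ATP medium Pcna alone differed, at 0.32 ± 0.06 (adjusted p = 8.4e-03), against 1.1% of genes higher and 0.0671% lower. That call was lost without 24 h ATP replicate 2 or 48 h vehicle replicate 2. For ENPP1 medium 0 members differed by edgeR and by DESeq2, with 0 members and 215 genes at an unadjusted p under 0.05. In vehicle medium the members were higher at 48 h than at 24 h for 17 of 41 and lower for 0 (1.68% and 3.2% of genes), with Cdc6 going from 70.9 and 69.1 to 87.0 and 86.3 CPM and Pole from 153 and 158 to 192 and 186 CPM. In ENPP1+ATP medium 22 fell and 2 rose between the times (21.2% and 19.5% of genes), Pole from 324 and 300.2 to 212 and 208 CPM. The summed CPM of the members at 48 h was 6335 and 6349 in vehicle, 6272 and 6548 in ENPP1, 6474 and 6615 in ATP, 6417 and 6486 in AMP and 6516 and 6543 in ENPP1+ATP medium. The ENPP1+ATP libraries still lay above the vehicle libraries, but within the range of the ATP libraries, which at 24 h lay below vehicle at 5534 and 5465. The vehicle count of 17 went to 6 without 24 h vehicle replicate 2, to 7 without either 48 h vehicle library, and to 30 when only the groups compared were fitted. In ATP and ENPP1 media 27 and 20 members were higher at 48 h and 0 lower (8.34% and 3.06% of genes higher, 6.44% and 4.89% lower), with ENPP1 at 8 or 6 without 24 h ENPP1 replicate 1 or 2 and at 6 without 48 h ENPP1 replicate 2. In AMP medium 20 fell and 8 rose (20.8% and 22.3% of genes).

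In NRVMs the same media were compared at 24 h, with 3 libraries each. ENPP1+ATP against vehicle medium gave 19 rises, 5 falls and 16 not called, against 28.6% and 27.4% of genes, and a median of 0.20. Fen1 went from 27.1, 28.7 and 29.4 to 48.7, 54.2 and 55.3 CPM, a log2 fold change of 0.89 ± 0.06 (adjusted p = 8.6e-16). Ccne2 went from 10.4, 12.0 and 12.5 to 19.0, 21.3 and 21.8 CPM, at 0.83 ± 0.10 (adjusted p = 1.4e-09), and Ccne1 from 14.03, 14.4 and 15.9 to 22.3, 24.3 and 25.1 CPM, at 0.70 ± 0.09 (adjusted p = 1.1e-08). No library of ENPP1+ATP medium overlapped a vehicle library in these 3 genes, nor in 62.3% of all genes. All 4 chromatin genes and 5 of 6 clamp genes rose, among them Pcna at 0.49, and none of the 6 MCM genes did. Pola1, Rpa3, Prim2, Mcm7 and Mcm4 fell by 0.46, 0.38, 0.30, 0.19 and 0.16. The call of Rpa3 was lost without ENPP1+ATP replicate 2 (-0.34) or vehicle replicate 1 (-0.35), and that of Mcm4 without vehicle replicate 2 (-0.12). Prim2 lost it without ENPP1+ATP replicate 1 (-0.29), vehicle replicate 1 (-0.28) or vehicle replicate 2 (-0.27), and with DESeq2 (-0.31). The Mcm10 gene, which led in CFs, was at -0.00 ± 0.11 and was not called.

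AMP medium gave 32 rises and 2 falls (29.2% and 28% of genes), with a median of 0.48, and ATP medium gave 30 and 2 (30.2% and 29.7%), with a median of 0.46. Ccne2 reached 28.0, 27.7 and 30.2 CPM in ATP medium and 32.1, 26.8 and 27.3 CPM in AMP medium, against 10.4 to 12.5 CPM in vehicle. The direct comparison of ENPP1+ATP with ATP medium called 26 members lower and 0 higher, against 13.5% and 14.1% of genes, with a median of -0.27, and all 6 MCM genes were among them, Mcm3 from 74.2, 75.7 and 75.8 to 53.4, 51.0 and 51.2 CPM, at -0.54 ± 0.05 (adjusted p = 9.8e-11). AMP against ENPP1+ATP medium gave 19 higher and 0 lower (5.81% and 3.85% of genes), a count that was 12 without ENPP1+ATP replicate 2. ENPP1+ATP against ENPP1 medium gave 21 higher and 4 lower (28.6% and 27.7%). ENPP1 medium gave 0 of 40 by edgeR and by DESeq2 (0% of genes), with 3 members and 693 genes at an unadjusted p under 0.05.

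**Figure D4:**
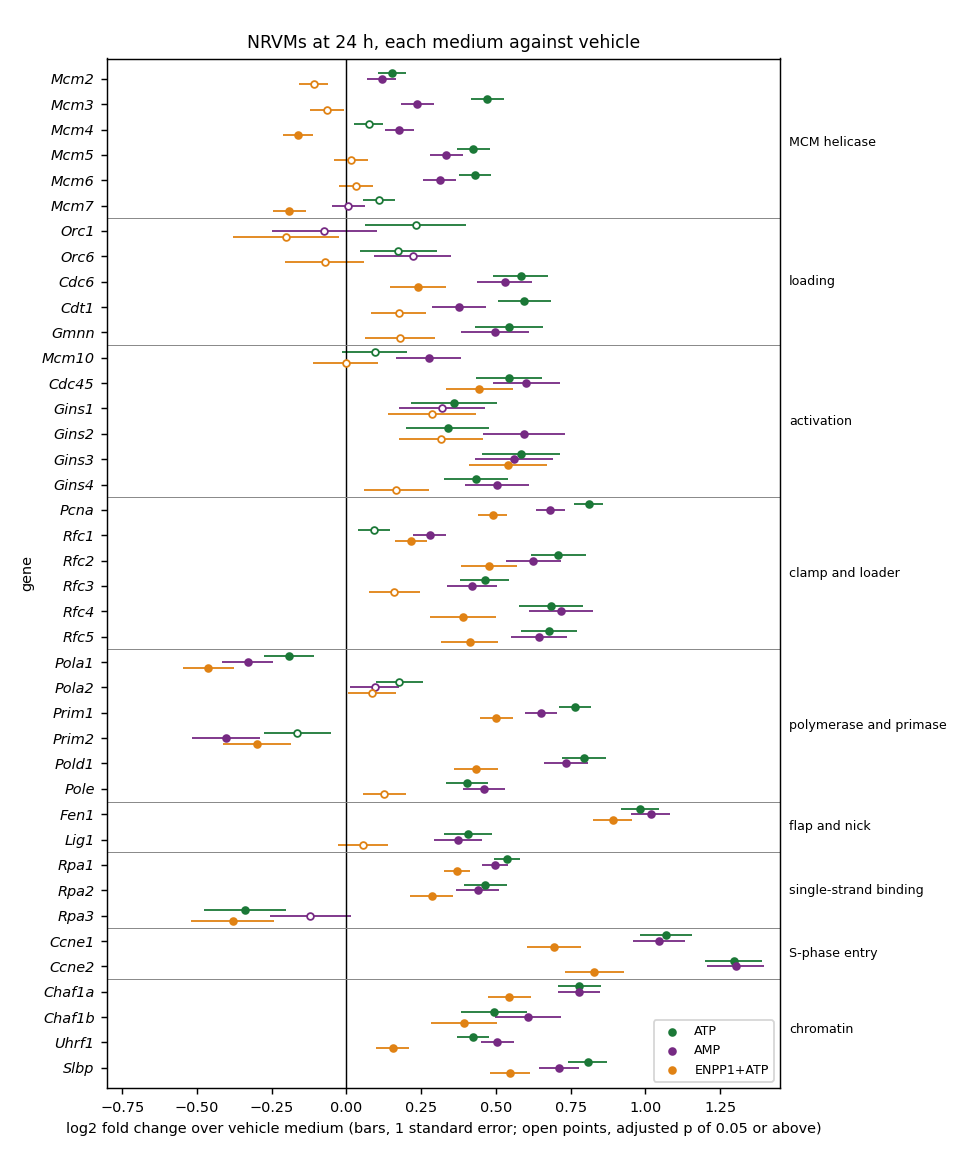
Log2 fold change over vehicle medium in NRVMs for 40 members (points, bars of 1 standard error) in ATP (green), AMP (purple) and ENPP1+ATP (orange) media, open where the adjusted p is 0.05 or above. Orange points lie to the left of green ones for all 6 MCM genes.

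In the same libraries the summed member CPM was 1240 to 1276 in vehicle, 1225 to 1236 in ENPP1, 1439 to 1454 in ENPP1+ATP, 1661 to 1699 in AMP and 1715 to 1738 in ATP medium. Summed cardiomyocyte markers were 38920 to 40950 CPM in vehicle, 32510 to 34210 in ENPP1+ATP, 20450 to 22260 in ATP and 37820 to 40450 in AMP medium. In the same order, fibroblast markers were 24740 to 26120, 8269 to 8730, 10360 to 11690 and 11510 to 12290 CPM, and macrophage markers were 4.56 to 5.44, 8.94 to 11.5, 15.04 to 16.7 and 9.8 to 12.3 CPM. Their part in the members' changes was not tested. Of 37 other replication genes 19 rose and 6 fell in ENPP1+ATP medium, and of 20 E2F regulators 8 rose and 4 fell, where 28.6% of all genes tested rose and 27.4% fell.

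In the injured hearts 1 library per genotype was measured, so no difference between genotypes has a replicate check and no p-value is given. After removal of 151 and 69 predicted doublets and cells of low quality, 7255 cells of the ENPP1CKO and 5240 of the control library remained, with medians of 3367 and 3701 counts; 68 barcodes were found in both. Fibroblast-like cells held 480 counts of Enpp1, the deleted gene, with ENPP1CKO and 1396 with control, or 28.8 and 121 CPM (28.7 and 130.2 CPM without cluster 11, described next). Classes are named after clusters that held their markers, and intervals are 95% Poisson or conditional binomial limits that cover counting error only.

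Cluster 11, with 31 ENPP1CKO and 115 control cells, was counted as fibroblast-like because 6 of the fixed fibroblast markers were found in it. Its leading genes were Serpinb2, Saa3, Crabp2, Dmkn and Wt1, of which Wt1 and Dmkn are known in mesothelial or epicardial cells. As in the other fibroblast-like clusters, 0 of its 10 leading genes were among the fixed markers. Sums, counts of members and thinned shares of the class are given with and without it, a choice made after the data were seen.

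Member transcripts summed to 499 CPM in the ENPP1CKO library and 536 CPM in the control, a log2 ratio of -0.10 (-0.14 to -0.07). Slbp had most counts, 1875 and 1369, then Rfc1 and Rfc2, while Orc1, the least, had 12 and 10. In fibroblast-like cells the sums were 443 and 502 CPM, from 3741 and 1972 cells, a log2 ratio of -0.18 (-0.23 to -0.13). Without cluster 11 they were 443 and 463 CPM, a log2 ratio of -0.06 (-0.11 to -0.01). Of the 40 members with at least 20 counts there, 34 were lower in the ENPP1CKO and 6 higher (50.2% of all 12938 genes with as many counts were lower), with a median of -0.33 against -0.0015 for all genes. Without cluster 11, 27 of 39 were lower and 12 higher (48.8% of all 12748 genes were lower), with a median of -0.14 against 0.0090 for all genes. Slbp was at a log2 ratio of 0.14 (-0.01 to 0.29) in these cells, Rfc1 at -0.00 (-0.17 to 0.16) and Rfc2 at -0.18 (-0.37 to 0.00). Without cluster 11 they were at 0.26 (0.10 to 0.42), 0.05 (-0.12 to 0.22) and -0.09 (-0.28 to 0.10). Pcna and Orc6, chosen after their values were seen to show members on either side, were at -0.38 (-0.61 to -0.14) and 0.25 (0.03 to 0.47) without it. In the class with cluster 11, intervals lay below 0 for 12 of the 40 members and above 0 for 0.

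In cluster 11 itself members were at 442 and 860.5 CPM, a log2 ratio of -0.96 (-1.30 to -0.64). In the 3 large fibroblast-like clusters the ratios were -0.01 (-0.08 to 0.06; 1116 and 1243 cells), 0.02 (-0.11 to 0.15; 1718 and 264 cells) and 0.01 (-0.14 to 0.17; 761 and 260 cells), so the cluster with most fibroblast-like cells was not the same in the 2 libraries. Macrophage-like cells had 528 and 519.5 CPM, a log2 ratio of 0.02 (-0.04 to 0.09). The libraries filled their clusters unevenly: cluster 6 held 57 ENPP1CKO and 823 control cells, with members at 935 and 465 CPM, a log2 ratio of 1.01 (0.74 to 1.27), while the larger clusters 0 and 5 were at -0.08 (-0.15 to 0.00) and -0.04 (-0.17 to 0.09). Endothelial-like cells had 755 and 648 CPM, at 0.22 (0.05 to 0.39), from 932 and 192 cells. Among the larger classes members were highest in T or NK-like cells, at 1279 and 1935 CPM.

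Thinned to 1000 counts per cell, 0.80% of fibroblast-like cells of the ENPP1CKO and 1.56% of the control held at least 3 members (0.54 to 1.15% and 1.05 to 2.21%, exact binomial). Unthinned the shares were 25.3% and 34.4%, with median depths of 4064 and 5240.5 counts, and thinned to 2000 counts they were 4.62% and 4.97%, with 429 and 163 shallower cells left out (110 and 44 at 1000 counts). Without cluster 11 the shares were 0.81% (0.54 to 1.16%) and 1.27% (0.81 to 1.90%) at 1000 counts and 4.66% and 4.36% at 2000 counts, where the order of the libraries was turned. Neutrophil-like cells, which do not divide, had such cells, at 1000 counts, in 1 of 6 (ENPP1CKO; exact binomial limit 64.1%) and 0 of 15 (control; exact limit 21.8%, or 20.0% as 3 cells of 15), too few to set a background.

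**Figure D5:**
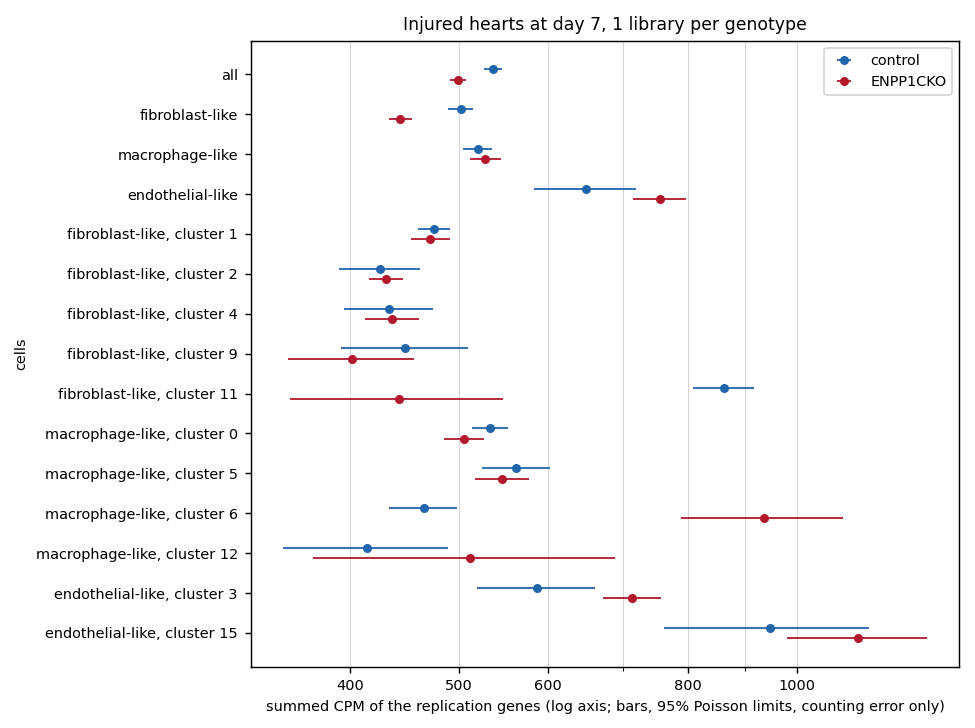
Summed CPM of the 41 members (log axis; bars, 95% Poisson limits) in control (blue) and ENPP1CKO (red) cells, for all cells, 3 classes and their clusters, with 1 library per genotype. Among fibroblast-like clusters, cluster 11 (led by Serpinb2 and Saa3) has the points furthest apart, at 442 and 860.5 CPM.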

How the data were processed

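The 41 members and the role lists were chosen with earlier results of these data known, and named genes are, in each role group, the member with the largest change in CF ENPP1+ATP against vehicle medium at 24 h and the one with the highest mean CPM, with members called against the majority, the 3 largest changes in NRVMs and the 3 members with most single-cell counts. The authors deposited whole-number read counts per gene and library for CFs and NRVMs, and counts of molecules per gene and cell for the single-cell libraries, none of them normalized. STAR 2.5.3a and Cell Ranger and the builds mm10 and rn6 are given by the submitters' processing notes; the counter, the annotation and the strand setting are not given in the sources used here. Every sample column was used (0 left out).

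Bulk libraries were fitted by edgeR 4.0.16 under R 4.3.3 (filterByExpr, TMM, robust quasi-likelihood fit of all libraries of an experiment, Benjamini-Hochberg, 0.05), without a replicate block. Replicates varied with a common biological coefficient of variation of 0.059 (CFs) and 0.0499 (NRVMs). Precision rests on 2 or 3 libraries per group and, for low members, on depth: in NRVMs the standard error of ENPP1+ATP against vehicle medium was 0.04 for Rpa1 and 0.18 for Orc1. The tests were run on simulated counts first. Alternatives were RLE factors, no filter, DESeq2 1.42.0, a replicate block, the compared groups alone and leaving out each library. Single cells (Python 3.11.15, scanpy 1.11.5) were kept from 200 genes upward and up to 20% mitochondrial counts, Scrublet doublets were removed, and 2000 variable genes without replication, E2F and mitosis genes, 30 principal components, 15 neighbours and Leiden resolution 0.5 gave the clusters. Gene positions come from GENCODE (GRCm38), promoters from RefSeq.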

Additional observations from a re-analysis of the deposited data

Results flagged for a closer look

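The effect of conditioned medium on CFs differed between 24 h and 48 h by the interaction term of edgeR's quasi-likelihood test. It differed in 29 of 41 members for ENPP1+ATP medium (29 lower and 0 higher at 48 h, against 14.9% and 15.1% of all genes), in 26 for AMP medium (25 and 1, against 14.4% and 17.3%) and in 1 for ATP medium (0 and 1, against 0.0671% and 1.1%). For ENPP1+ATP medium the difference (48 h minus 24 h, log2) was -0.78 for Mcm10, -0.86 for Pole, -0.83 for Slbp, -0.64 for Gins1 and -0.90 for Rfc5. For AMP medium Mcm6 differed the other way, at 0.19, and for ATP medium Pcna differed at 0.32, a call lost without 24 h ATP replicate 2 or 48 h vehicle replicate 2.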

How the results depend on the processing

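Of 300 counts of called members under an alternative, over 30 comparisons, 268 were within 1.5 times the reported count and 32 were outside. The 268 include counts of 0 that stayed 0, as in each comparison of ENPP1 with vehicle medium. For every member, not only the named genes, 3534 log2 fold changes were taken under an alternative. They cover ENPP1+ATP, AMP and ATP against vehicle medium and no other comparison. Of these, 3257 kept their direction and side of the threshold, 147 lost the call and 34 gained one. Signs changed in 96 uncalled values and 0 called ones. With a replicate block no count was outside 1.5 times (35 for ENPP1+ATP against vehicle medium at 24 h, as without it), and replicate numbers did not pair the samples (median correlation 0.013 over 90 CF pairs, 6 of them above 0.1 and at most 0.277, and 0.014 over 30 NRVM pairs, 1 of them above 0.1). With 2 libraries a group, both numbers give a pair of CF groups the same value.

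With RLE factors ATP medium called 5 members at 24 h. Without the low-count filter ATP medium called 1 at 48 h. With only the groups compared, AMP against ENPP1+ATP medium called 1 at 24 h, ATP medium 5 and ENPP1+ATP against ENPP1 medium 11 at 48 h, 48 h against 24 h vehicle medium 30, and the ATP difference between times 3, which was also 3 by DESeq2. The cause was not tested.

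Leaving out 1 library in turn gave counts of 2 to 3 for ATP and 0 to 3 for AMP against ENPP1+ATP medium at 24 h. At 48 h it gave 12 to 18 for ENPP1+ATP against vehicle, 0 to 1 for ATP, 10 to 13 for ENPP1+ATP against ATP and 11 to 14 for ENPP1+ATP against ENPP1 medium. Between the times it gave 6 to 12 in vehicle and 6 to 17 in ENPP1 medium and 0 to 1 for the ATP difference. In NRVMs it gave 12 to 17 for AMP against ENPP1+ATP medium. A group left with 1 library is assumed to vary like the others.

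Without the cluster led by Saa3, Crabp2 and Wt1 the fibroblast-like ratio was -0.06158. The shares at 1000 counts were 0.806% and 1.27% without it. Thinned to 2000 counts, shares with at least 3 members were 4.62% and 4.975% in fibroblast-like cells (ENPP1CKO and control). They were 7.085% and 7.017% in macrophage-like and 13.95% and 10.92% in endothelial-like cells. Of the endothelial-like cells 638 of 932 (ENPP1CKO) and 73 of 192 (control) were shallower and left out. Their unthinned shares were 11.27% and 17.71%, in the other order, with median depths of 1472.5 and 2602.5 counts. Macrophage-like cells left out 354 and 702, and their unthinned shares were 18.79% and 19.66%. With 1 library per genotype, counting error is the only error known there.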
